A study of Mus musculus with 2 samples.

Results

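A set of 10 genes was followed through the islet cells of WT and *Npc1*-/- mice: *Cd79a*, *Cd79b*, *Cd81*, *Rbp4*, *Ramp1*, *Aqp4*, *Defb1*, *Msln*, *Scnn1b* and *Fam151a*. They are 10 of the 31053 genes in the count tables. They were picked from these same data, as a list of markers of a cluster of insulin cells with high *Ppy* and *Pyy*. The ratio of the 10 genes between *Ppy*- and *Pyy*-rich and -poor insulin cells is therefore a description and not a finding. Not all of the 10 mark such cells: *Cd79b* had 0 UMIs in the rich cells, and *Msln* and *Fam151a* differed little between rich and poor cells. The level of the 10 genes in insulin cells against other islet cells is likewise a description. Each genotype was 1 single-cell library, labelled WT and KO, made from the islets of 3 female mice pooled at 2 weeks of age. The KO mice lack NPC1, the protein that moves cholesterol out of lysosomes, in every tissue. The mice were littermates on a C57BL/6J background. Neither genotype has a second library, which leaves every difference without a replicate check and without a p-value. Intervals are exact, at 95%, and cover counting error only.

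β cells make and release insulin, and in the weeks after birth they mature: *Ucn3* (urocortin 3) and *Mafa* (a transcription factor of insulin genes) rise, while traces of other islet hormones fade. CD79A and CD79B pair as the signalling part of the B cell receptor, and CD81 is a tetraspanin made by many cell types. The other genes encode a carrier of retinol (*Rbp4*), a partner of the calcitonin-like receptor (*Ramp1*), a water channel (*Aqp4*), an antimicrobial peptide (*Defb1*), mesothelin (*Msln*, a surface protein of mesothelium) and the β subunit of the epithelial sodium channel (*Scnn1b*).

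Cells were kept with over 1000 genes, under 50000 UMIs (unique molecular identifiers, 1 per captured mRNA), with less than 10% of UMIs from mitochondrial genes and no more than 0.1% from haemoglobin genes. This left 4628 of 8569 WT barcodes and 4269 of 7646 KO barcodes, with median depths of 18905 and 21381 UMIs. The libraries shared 12 barcodes, 3 of them among kept cells. *Npc1*, the disrupted gene, had 790 UMIs in kept WT cells and 391 in kept KO cells, that is 8.40 and 4.14 counts per 1000000 UMIs (CPM). Where the 3' tags lie relative to the disrupted part is not known here, so this is a lower level in the library labelled KO and no proof of the label. The WT library held 140 B-like and 68 T-cell-like cells and the KO library 1 and 0. Cells with at least 20% of UMIs from *Ins1* and *Ins2* are called insulin-leading, 1805 in WT and 1804 in KO. They are PP-rich where *Ppy* and *Pyy* (pancreatic polypeptide and peptide YY) made up at least 1% of UMIs and PP-poor otherwise. PP-rich cells were 481 of 1805 in WT (26.6%, 24.6% to 28.8%) and 801 of 1804 in KO (44.4%, 42.1% to 46.7%).

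The name of the set was checked against known markers. In WT insulin-leading cells *Ucn3* was at 243 CPM in PP-poor and 88.9 CPM in PP-rich cells, and in KO cells at 198 and 69.7 CPM. Of 10 genes of mature β cells, 3 were at least 2-fold lower in PP-rich cells in both libraries (*Ucn3*, *Mafa* and *Trpm5*), against 0.895% of all genes tested in WT and 0.422% in KO, and none was higher. *Nkx6-1* and *Pdx1*, which set β cell identity, had log2 ratios of -0.12 and -0.04 in WT and -0.16 and 0.02 in KO. The summed level of *Sst*, the somatostatin gene, was 49.1 CPM in PP-poor and 6227 CPM in PP-rich cells of WT, and 61.6 and 3406 CPM in KO. The share of cells with an *Sst* UMI was much closer, at 69.0% and 75.5% in WT and 78.1% and 79.2% in KO, and 68 of 481 WT and 72 of 801 KO PP-rich cells had *Sst* or *Gcg* at 1% or more of their UMIs. The part of cell pairs under 1 barcode was not tested beyond the values given below without cells that had high *Sst* or *Gcg* and without the highest doublet scores.

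*Cd79a* (ENSMUSG00000003379) lies on chromosome 7 at 24897381 to 24902197 (+ strand, GRCm38, GENCODE vM21), and *Cd79b* (ENSMUSG00000040592) on chromosome 11 at 106311341 to 106314762 (- strand). No annotated gene overlaps either of them. *Cd81* shares bases on the opposite strand with *R74862*, *Aqp4* with *AC133525.2*, *Scnn1b* with *Cog7* and *Fam151a* with *Acot11*. Whether counting used strand is not given in the sources used here, so the values of these 4 genes may hold reads of their partners. RefSeq promoters (GRCm38.p6) were matched for 6 of the 10 genes. Those of the 4 genes that differed most between PP-rich and PP-poor cells are shown, up to the base before the first annotated start, with E-box letters (CANNTG, read on both strands) in capitals. E-boxes are the sites of bHLH factors such as NEUROD1.
*Cd79a* (chr7:24897247-24897380, + strand): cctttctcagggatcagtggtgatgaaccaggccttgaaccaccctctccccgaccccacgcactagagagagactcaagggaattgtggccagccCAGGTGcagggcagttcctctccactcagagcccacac
*Cd81* (chr7:143052500-143052738, + strand): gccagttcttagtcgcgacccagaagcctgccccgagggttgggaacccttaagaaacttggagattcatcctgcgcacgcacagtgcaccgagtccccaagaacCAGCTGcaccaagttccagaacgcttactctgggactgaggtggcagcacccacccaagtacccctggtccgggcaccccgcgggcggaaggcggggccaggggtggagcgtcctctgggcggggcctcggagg
*Ramp1* (chr1:91179572-91179821, + strand): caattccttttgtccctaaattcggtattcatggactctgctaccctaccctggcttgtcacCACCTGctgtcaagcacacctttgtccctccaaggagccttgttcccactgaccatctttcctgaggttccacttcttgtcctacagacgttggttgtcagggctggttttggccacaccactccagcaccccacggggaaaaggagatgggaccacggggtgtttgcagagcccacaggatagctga
*Rbp4* (chr19:38125322-38125571, - strand): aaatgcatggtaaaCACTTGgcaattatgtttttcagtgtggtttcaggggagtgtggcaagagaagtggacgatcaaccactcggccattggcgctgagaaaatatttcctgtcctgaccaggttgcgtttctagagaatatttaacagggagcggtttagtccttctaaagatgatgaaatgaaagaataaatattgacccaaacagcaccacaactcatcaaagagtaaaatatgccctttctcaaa

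All 6 promoters held an E-box, but so did 72.3% of the 32851 promoters of the same 300 bases in the table. The letters CCCNNGGG are a form of the core bound by early B cell factors, which act on *Cd79a* in B cells. They were found with *Cd81* and *Ramp1* and in 13.7% of all promoters. This exact run was not found in the 300-base window of *Cd79a*. Other forms of the core were not searched, so a site there may have been missed. That window held E-boxes starting 154 and 117 bases before the RefSeq start, the second of which reaches past the annotated start and is not printed. It held no match to TAAT (homeodomain). Nor did it hold TGCTGA (MAF). GTTGCC (RFX) was not there either. The same was true of TGTTTAC (FOXA). These were found in 58.0%, 19.5%, 12.5% and 3.65% of all promoters. A match is a run of letters and not a site in use.

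**Figure D1:**
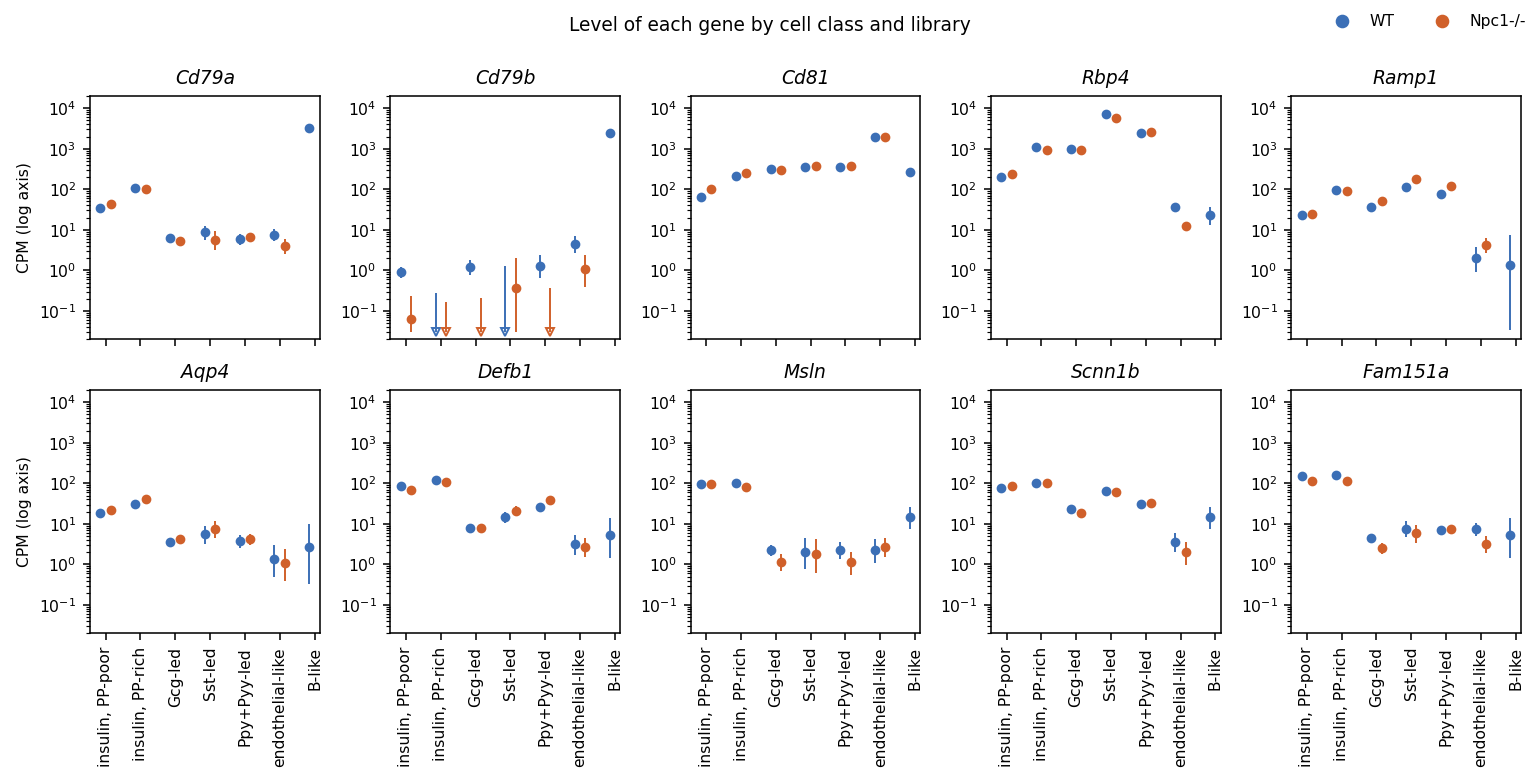
Level of each of the 10 genes in CPM (log axis) by cell class, with WT and *Npc1*-/- side by side. Each point pools the UMIs of all cells in a class of 1 library, bars are exact 95% counting intervals and open triangles mark a count of 0. *Cd79a* stands higher in insulin-leading cells than in the classes led by *Gcg*, *Sst* or *Ppy*+*Pyy*, and highest in B-like cells. *Cd79b* is near 0 in the classes led by a hormone. The KO library had 1 B-like cell, which is not drawn.

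*Cd79a* was present in insulin-leading cells without its partner. In WT it stood at 34.3 CPM (1407 UMIs) in PP-poor and 110.0 CPM (1480 UMIs) in PP-rich cells, and in KO at 42.4 CPM (1328 UMIs) and 101 CPM (2247 UMIs). *Cd79b* had 37 UMIs in WT PP-poor cells, 2 in KO PP-poor cells and 0 in the PP-rich cells of both libraries. The 0 allows up to 0.223 CPM in WT. The 140 B-like cells of the WT library had 3197 CPM of *Cd79a* and 2462 CPM of *Cd79b*, a ratio of 1.30. Both genes of the pair were thus abundant there.

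The B cell share of the insulin cell signal can be bounded with that ratio. With *Cd79b* set at its limit of 3 UMIs, RNA like that of the B-like cells would bring 3.90 *Cd79a* UMIs, which is 0.263% of those counted in WT PP-rich cells and 0.173% in KO PP-rich cells. In WT PP-poor cells the 37 *Cd79b* UMIs correspond to 3.41% of *Cd79a*. Those 37 UMIs lay in 8 of 1324 cells. Endothelial-like cells differed: in WT they had 34 *Cd79a* and 20 *Cd79b* UMIs, so 76.4% of *Cd79a* was matched at the B cell ratio. The whole list of 8 B cell markers summed to 0.966 CPM in WT PP-rich cells, with 4 of 8 at 0, and to 4.65 CPM in WT PP-poor cells, with 0 of 8 at 0. In KO it summed to 1.03 and 0.447 CPM, with 5 of 8 at 0 in both classes. *Ms4a1* (CD20) had 1 UMI in WT PP-rich cells and 0 in KO PP-rich cells.

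Few other parts of the B cell receptor reached the low limit of 5 CPM. Of 9 further genes of the receptor complex, 1 (*Igkc*, the κ light chain) reached 5 CPM in insulin-leading cells of WT and 0 did in the comparison within KO. *Igkc* was at 6.21 CPM in PP-poor and 3.57 CPM in PP-rich cells of WT, against 10689 CPM in B-like cells. Of 18 genes of signalling below the receptor, 3 were tested in WT and 2 in KO, and none passed 2-fold between PP-rich and PP-poor cells. The most abundant was *Prkcb*, a protein kinase C also used outside B cells, at 41.6 and 31.2 CPM in WT and 50.4 and 46.9 CPM in KO. The gene nearest to *Cd79a* on one side, *Rps19*, a ribosomal protein gene 7686 bases away, lay between 398 and 481 CPM, and on the other side *Arhgef1*, 1128 bases away, lay between 19.1 and 28.1 CPM in the 4 insulin-leading groups. *Gh* and *Scn4a*, beside *Cd79b*, had 0 UMIs there.

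Detection followed the same order. With each cell thinned to 5000 UMIs, *Cd79a* was seen in 29.6% of WT PP-rich cells (25.5% to 33.9%) and 28.7% of KO PP-rich cells (25.5% to 32.0%). In PP-poor cells it was seen in 12.7% and 14.5%. The share in endothelial-like cells, which should lack the gene, was 1.27% in WT and 0.240% in KO, and in *Gcg*-led (α-like) cells 2.35% and 3.07%. Shallower cells were left out, 12 of the insulin-leading cells in WT and 19 in KO. Without thinning, 59.5% of WT and 54.2% of KO PP-rich cells had a UMI, at median depths of 27739 and 27957 UMIs, against 1.13% and 1.79% of endothelial-like cells with median depths of 7805 and 10265.5 UMIs. The insulin cell shares stood well above that background at equal depth.

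The 10 genes fell into different patterns across the islet. In both libraries 6 of the 9 genes tested were at least 2-fold higher in insulin-leading than in other hormone-led cells (*Gcg*-, *Sst*- and *Ppy*+*Pyy*-led together), where 2.64% of all genes tested were higher in WT and 2.69% in KO. They were *Cd79a*, *Aqp4*, *Defb1*, *Msln*, *Scnn1b* and *Fam151a*. Since the genes were picked as leading a cluster of insulin cells, nothing is read from this count. A further 2, *Cd81* and *Rbp4*, were at least 2-fold lower, as were 18.7% of all genes in WT and 14.7% in KO. *Cd79b* was below 5 CPM in both groups and was not tested. The median gene lay at -0.56 in WT and -0.47 in KO on the log2 scale, so part of each ratio is shared with most genes.

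*Msln* had the highest ratio when set against other hormone-led cells. It had 98.8 CPM in WT insulin-leading cells and 2.24 CPM in the other hormone-led cells, a ratio of 43.8 (34.7 to 57.0), and in KO 90.9 against 1.21 CPM, a ratio of 74.0 (54.1 to 107). *Fam151a* had 153 against 5.58 CPM in WT and 114 against 4.47 CPM in KO. *Cd79a* had 53.0 against 6.49 CPM in WT, a ratio of 8.14 (7.06 to 9.49), and 66.7 against 5.69 CPM in KO, a ratio of 11.7 (10.1 to 13.8). These 3 genes were thus each over 8-fold higher in insulin-leading cells in both libraries. Endothelial-like cells held 2.25 CPM of *Msln*, 7.41 CPM of *Fam151a* and 7.64 CPM of *Cd79a* in WT. In KO they held 2.70, 3.24 and 3.96 CPM. The levels in other hormone-led cells were close to these, and the part of background RNA in the ratios was not tested. *Defb1* stood at 94.5 against 13.4 CPM in WT and 85.5 against 19.3 CPM in KO. Its next highest class was the *Ppy*+*Pyy*-led cells, at 25.7 and 39.1 CPM. *Aqp4* stood at 22.0 against 3.81 CPM in WT and 30.3 against 4.54 CPM in KO. *Scnn1b* was the least restricted of the 6, with 83.3 against 29.2 CPM and 93.4 against 27.0 CPM. *Sst*-led (δ-like) cells held 66.4 CPM of it in WT and 60.5 CPM in KO, below PP-poor insulin cells at 77.1 and 86.1 CPM.

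*Rbp4*, *Ramp1* and *Cd81* were not restricted to insulin-leading cells. *Rbp4* peaked in *Sst*-led cells, at 7297 CPM in WT and 5569 CPM in KO, followed by *Ppy*+*Pyy*-led cells at 2504 and 2611 CPM. PP-rich insulin cells held 1084 and 905 CPM, near the 986 and 930 CPM of *Gcg*-led cells, and PP-poor insulin cells 203 and 233 CPM. *Ramp1* also peaked in *Sst*-led cells among the islet classes, at 115 CPM in WT and 174 CPM in KO, above the 95.6 and 88.7 CPM of PP-rich and the 23.4 and 24.3 CPM of PP-poor insulin cells. Macrophage-like cells held 222 CPM in WT and 156 CPM in KO, above the *Sst*-led cells in WT and below them in KO. *Cd81* was highest in endothelial-like cells, at 1918 and 1925 CPM. The *Gcg*-, *Sst*- and *Ppy*+*Pyy*-led cells held 303 to 374 CPM over both libraries, PP-rich insulin cells 216 and 256 CPM and PP-poor insulin cells 65.6 and 101 CPM. For these 3 genes the PP-rich insulin cells sat between PP-poor insulin cells and the highest islet class.

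**Figure D2:**
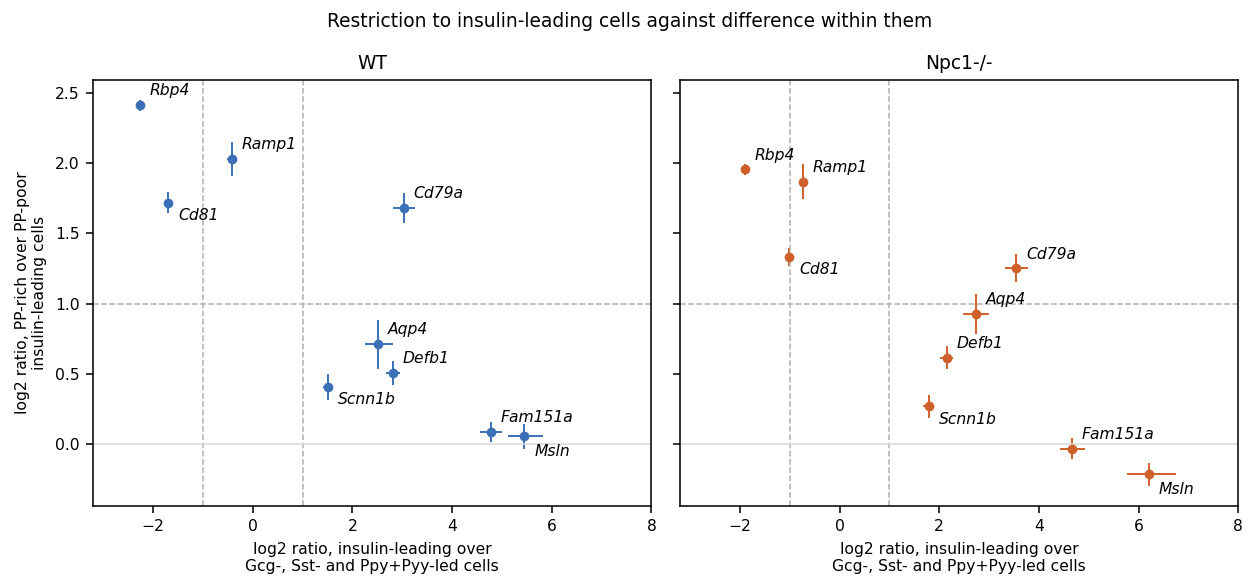
Each point is 1 gene: the x axis gives the log2 ratio of insulin-leading over other hormone-led cells and the y axis the log2 ratio of PP-rich over PP-poor insulin-leading cells, WT left and *Npc1*-/- right. Bars are exact 95% counting intervals and dashed lines mark 2-fold. *Cd79a* lies past 2-fold upward on both axes, *Rbp4* and *Cd81* lie at the upper left, and *Msln* and *Fam151a* lie at the lower right near 0 on the y axis.

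The ratio used to choose the set also divided it. Between PP-rich and PP-poor cells, 4 of the 9 genes tested were at least 2-fold higher in both libraries, with 1.72% of all genes past that limit in WT and 1.14% in KO. Since the rule used this contrast, nothing is read from the count. The 4 were *Cd79a*, *Cd81*, *Rbp4* and *Ramp1*. For *Cd79a* the PP-rich level was 3.21 times the PP-poor level (2.98 to 3.46) in WT and 2.38 times the PP-poor level (2.22 to 2.55) in KO. In KO the ratio for *Cd79a* fell under 2-fold with the stricter cell filter (0.90 on the log2 scale) and with the *Ppy*+*Pyy* limit at 2% (0.98). *Rbp4* had log2 ratios of 2.41 and 1.96, *Ramp1* of 2.03 and 1.87, and *Cd81* of 1.72 and 1.33. *Aqp4* had 19.0 CPM in PP-poor and 31.1 CPM in PP-rich cells of WT, and 22.1 and 41.9 CPM in KO, log2 ratios of 0.71 and 0.93. *Defb1* (0.51 and 0.61) and *Scnn1b* (0.41 and 0.27) differed less.

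*Msln* and *Fam151a* did not follow the others. *Msln* stood at 97.9 CPM in PP-poor and 102 CPM in PP-rich cells of WT, and at 96.5 and 83.0 CPM in KO. *Fam151a* stood at 151 and 160 CPM in WT and at 115 and 112 CPM in KO. Their log2 ratios, 0.05 and 0.09 in WT and -0.22 and -0.03 in KO, lay below the median gene at 0.15 in WT and 0.16 in KO. Both genes thus differed between insulin-leading and other hormone-led cells but little between PP-rich and PP-poor cells as whole groups. Within the WT PP-rich group *Msln* was uneven. It stood at 128 CPM in cells with 1 to 3% of *Ppy* and *Pyy* and 43.0 CPM in those with 3 to 10%. In KO these cells held 80.9 and 89.1 CPM.

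**Figure D3:**
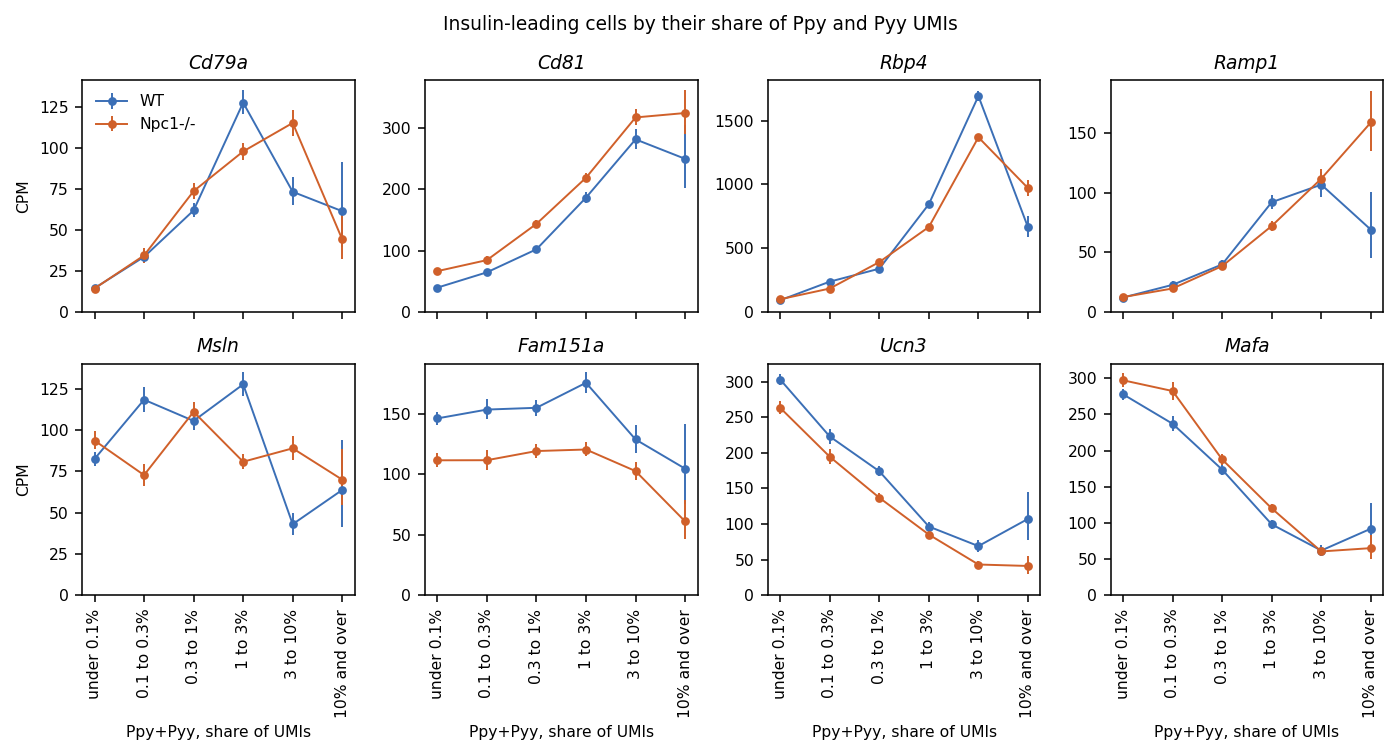
CPM of 6 genes of the set and of *Ucn3* and *Mafa* in insulin-leading cells, by their share of *Ppy* and *Pyy* UMIs in 6 bins, for WT and *Npc1*-/-. Bars are exact 95% counting intervals. *Cd79a*, *Cd81*, *Rbp4* and *Ramp1* climb over the first 4 bins in both libraries, *Ucn3* and *Mafa* fall over them, and *Fam151a* changes little over them. The bin at 10% and over holds 13 WT and 36 KO cells.

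Within insulin-leading cells *Cd79a* in WT went through 14.3, 33.4, 61.7 and 128 CPM in the bins under 0.1%, 0.1 to 0.3%, 0.3 to 1% and 1 to 3% of *Ppy* and *Pyy*, then stood at 73.1 CPM at 3 to 10% and 61.3 CPM at 10% and over. In KO the bins held 14.1, 34.3, 73.5, 97.8, 115 and 44.0 CPM. *Cd79a* thus peaked at 1 to 3% in WT and at 3 to 10% in KO. *Rbp4* climbed from 89.2 CPM in the first bin to 1696 CPM at 3 to 10% in WT and from 97.1 to 1371 CPM in KO. *Cd81* climbed from 39.2 to 282 CPM and from 66.2 to 318 CPM over the same bins. Cells just under the 1% limit (0.8 to 1%) held 94.2 CPM of *Cd79a* in WT and 126 CPM in KO, and the cells next above it held 104 and 103 CPM. In WT *Rbp4* stood at 523 CPM under the limit and 656 CPM above it and *Cd81* at 107 and 146 CPM, with intervals that did not overlap, whereas in KO *Rbp4* stood at 545 and 516 CPM and *Cd81* at 192 and 180 CPM, with overlapping intervals. The PP-poor group therefore holds *Cd79a*-high cells near its edge.

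*Sst* and *Gcg* RNA moved with the PP share, and *Rbp4* is highest in *Sst*-led cells. Without the insulin-leading cells that had at least 1% of *Sst* or *Gcg*, which were 68 PP-rich and 23 PP-poor cells in WT and 72 and 11 in KO, the log2 ratio of *Rbp4* was 2.06 in WT and 1.81 in KO. *Cd79a* then had 1.80 and 1.32, *Cd81* 1.77 and 1.34, and *Ramp1* 2.15 and 1.87. All 4 genes remained past 2-fold in both libraries, and PP-rich cells held 118 CPM of *Cd79a* in WT and 105 CPM in KO. This choice was made after the data were seen.

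Cells were also split by the maturity marker *Ucn3*, which is not independent of the PP share. From the lowest *Ppy*+*Pyy* bin to that at 1 to 3%, *Ucn3* fell from 303 to 96.5 CPM in WT. In KO it fell from 263 to 85.2 CPM. The values below are therefore descriptions. Among PP-poor cells, *Cd79a* stood at 26.9 CPM in WT cells with a *Ucn3* UMI after thinning and at 47.2 CPM in those without, and in KO at 27.2 and 62.0 CPM. Among PP-rich cells it stood at 89.1 and 121 CPM in WT and at 101 and 101 CPM in KO. So *Cd79a* was higher without a thinned *Ucn3* UMI in both PP-poor groups and in WT PP-rich cells, and level in KO PP-rich cells. With and without *Ucn3* refer here to the thinned counts only. Over all their UMIs, the cells without still held 145 CPM of *Ucn3* in WT PP-poor and 111 CPM in KO PP-poor cells. In PP-rich cells they held 48.2 CPM in WT and 42.2 CPM in KO. *Ramp1* was higher without *Ucn3* in all 4 groups, at 31.9 against 18.5 CPM in PP-poor and 111 against 66.5 CPM in PP-rich cells of WT, and at 31.5 against 18.6 and 96.0 against 66.2 CPM in KO. *Fam151a* stood at 150.2 CPM without and 150.9 CPM with *Ucn3* in WT PP-poor cells.

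**Figure D4:**
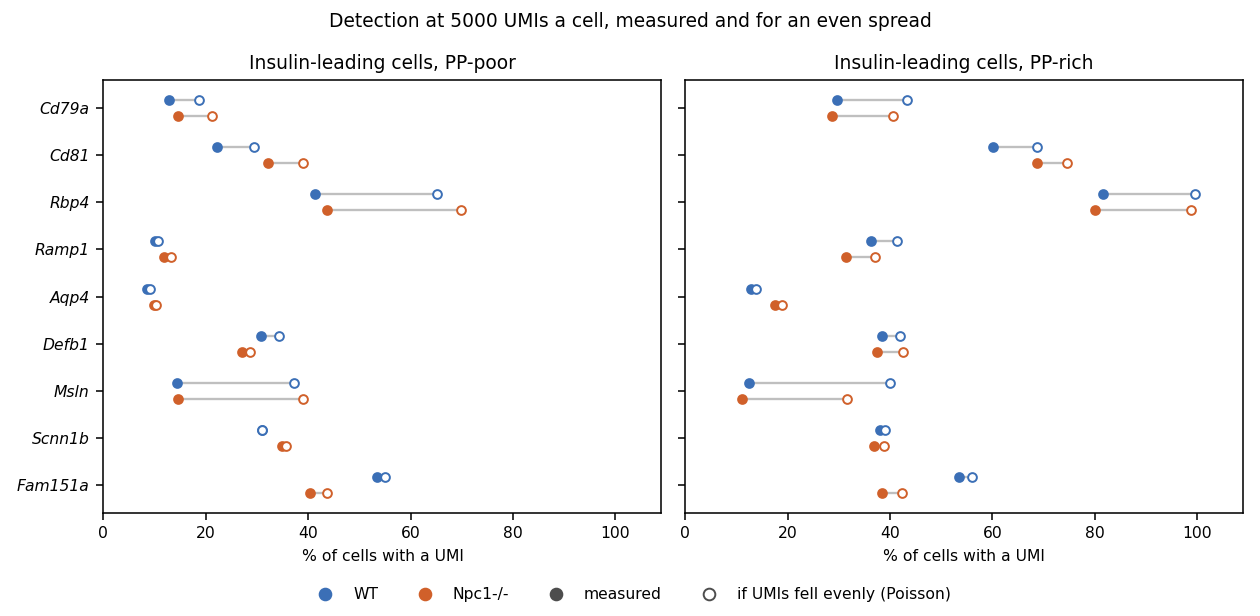
Percent of insulin-leading cells with at least 1 UMI after thinning every cell to 5000 UMIs, PP-poor left and PP-rich right, for WT and *Npc1*-/-. Filled points are measured and open points give the share if the same UMIs fell evenly over the cells (Poisson). The gap is widest for *Msln* and *Rbp4* and nearly closed for *Scnn1b* and *Aqp4*.

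The genes differed in how their RNA was spread over cells. *Msln* was concentrated in few cells: at 5000 UMIs a cell, 14.4% of WT PP-poor cells had a UMI, where an even spread would give 37.3%, and the 131 cells with most held 88.4% of its UMIs. In KO PP-poor cells the measured share was 14.6% against 38.9%, and in PP-rich cells 12.5% against 40.0% in WT and 11.2% against 31.6% in KO. Its variance over mean was 4.09 to 5.58 in the 4 groups, where an even spread gives 1.

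*Fam151a* and *Scnn1b* were nearly even. In WT PP-poor cells *Fam151a* was seen in 53.4% against 55.0% and *Scnn1b* in 30.9% against 30.9%, with a variance over mean of 1.13 and 1.01. *Cd79a* lay between, with 12.7% against 18.6% in WT PP-poor and 29.6% against 43.4% in WT PP-rich cells, and a variance over mean of 2.02 to 2.38 over the 4 groups. So splitting by *Ppy* and *Pyy* did not make *Cd79a* even: within WT PP-rich cells the 48 cells with most held 61.2% of its UMIs. *Msln* and *Fam151a*, both far higher in insulin-leading than in other hormone-led cells, had opposite spreads. For genes held by few cells the counting intervals are too narrow, since they take no account of which cells were sampled.

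In PP-poor cells *Cd79a* was seen more often in cells that also had *Ramp1*, *Rbp4* or *Cd81*. In WT it was seen in 33.1% of 133 cells with *Ramp1* (25.2% to 41.8%) and 10.4% of 1180 cells without (8.74% to 12.3%). For *Rbp4* the shares were 20.8% and 7.01%, and for *Cd81* 22.3% and 9.98%. KO PP-poor cells gave 29.7% and 12.5% for *Ramp1*, 22.9% and 8.02% for *Rbp4* and 26.6% and 8.86% for *Cd81*. For *Msln* the intervals overlapped in both libraries, with 11.1% of 189 cells with it and 13.0% of 1124 cells without in WT, and 20.5% (14.3% to 28.0%) and 13.5% (11.3% to 16.0%) in KO. The intervals were apart in KO PP-poor cells for *Aqp4* (26.3% and 13.3%) and *Fam151a* (19.2% and 11.4%) too, but overlapped in WT PP-poor cells. In PP-rich cells the intervals stayed apart for *Ramp1* in WT (37.9% and 24.8%), *Defb1* in WT (37.8% and 24.4%) and *Rbp4* in KO (31.7% and 16.6%). For *Defb1* in KO PP-rich cells they overlapped (31.2% and 27.2%). The same was true for *Ramp1* in KO (29.96% and 28.1%) and *Rbp4* in WT (31.9% and 19.3%) PP-rich cells. For *Cd81* in PP-rich cells they overlapped in both libraries (31.1% and 27.2% in WT, 31.0% and 23.6% in KO). The PP share was not held fixed within either group, so its part in these shares was not tested. Cells of 1 library are not replicates, so these shares describe the libraries.

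Profiles over 12 islet groups (6 hormone-led classes in each library) were used to find the genes most like each of the set by Pearson correlation of log2(CPM + 1), among 6587 genes. The groups share libraries and depth, so the values are descriptions. *Cd79a* was most like *Tmod1* (tropomodulin 1, r = 0.98), with 32.1 and 53.7 CPM in WT PP-poor and PP-rich cells and 10.5 to 13.5 CPM in the other WT classes. *Fam151a* and *Aqp4* of the set itself came next (0.95 each), then *Gjd2* (connexin 36, which couples β cells, 0.94) and *Rfk* (riboflavin kinase, 0.94). *Msln* was most like *Slc2a2*, the glucose transporter of β cells (0.99), *Rbp4* most like *Ffar4*, a fatty acid receptor (0.99), and *Fam151a* most like *Serp1* (0.99). *Defb1* was nearest to *Gmpr* (0.98), *Aqp4* to *Dtnbos* (0.98), *Scnn1b* to *Lgalsl* (0.97), *Cd81* to *Hist3h2ba* (0.97) and *Ramp1* to *Unc50* (0.93). *Cd79b* was nearest to the immunoglobulin gene *Igkc* (0.88), at counts close to 0.

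Partners of the genes were looked up in lists. Of 14 further genes of retinol transport and action, 2 could be tested within insulin-leading cells and none passed 2-fold between PP-rich and PP-poor cells. *Ttr*, the carrier that binds RBP4, stood at 766 and 933 CPM in WT and 807 and 745 CPM in KO, far below the 24054 and 21298 CPM of *Gcg*-led cells. Of 10 further genes of calcitonin-type receptors and ligands, 3 were tested and none passed. *Calcrl*, the receptor that RAMP1 joins, was at or above 20 CPM in endothelial-like cells only, with 229 CPM in WT and 265 CPM in KO. Of 12 further sodium and water transport genes, 2 were tested in WT and 4 in KO, and none passed. *Aqp11* was at 25.8 and 26.5 CPM in WT and 22.6 and 26.8 CPM in KO. Of 13 partners of CD81, 8 were tested, and *Cd9*, a related tetraspanin, was past 2-fold higher in both libraries while *Ifitm3* was past 2-fold lower in WT. *Tspan7* stood at 87.5 and 121 CPM in WT and 98.2 and 139 CPM in KO.

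*Gcg*-led cells were split by *Ppy* and *Pyy* in the same way. The genes were chosen for this contrast in insulin-leading cells, so the counts of the cell classes are not compared. Of 6 genes tested, 0 were past 2-fold higher in WT and 1 in KO, against 0.271% and 0.417% of all genes. None was past 2-fold lower in either library, against 0.793% and 1.35%. The 1 was *Cd79a*, at 1.99 CPM (11 UMIs) in PP-poor and 6.74 CPM (79 UMIs) in PP-rich cells. In WT *Gcg*-led cells *Cd79a* was at 7.21 and 5.89 CPM, but 22 *Cd79b* UMIs in the PP-poor group match 51.0% of it at the B cell ratio. *Rbp4* differed little, with 897 and 1049 CPM in WT and 866 and 961 CPM in KO. *Scnn1b* was higher in PP-rich cells in both libraries, at 16.0 and 27.5 CPM in WT and 11.2 and 22.4 CPM in KO.

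In all insulin-leading cells, relative to the median gene (which lay 0.12 higher in KO on the log2 scale), 0 of the 9 genes tested were at least 1.5-fold higher in KO and 0 lower, against 1.23% and 1.45% of all genes. Over all 10 genes, the counting interval lay above the median gene for 5 and below it for 4. Among those below was *Cd79b*, which was not tested (37 UMIs in WT and 2 in KO). The share of all genes with intervals clear of the median gene was not computed, so nothing is read from these interval counts. The count of genes at least 1.5-fold higher was 1 under 4 of the other settings. *Cd81* came nearest, at 103 CPM in WT and 165 CPM in KO, a log2 difference of 0.57 (0.52 to 0.62) relative to the median gene. *Fam151a* was the lowest, at 153 and 114 CPM (-0.55, -0.60 to -0.50). *Cd79a* went from 53.0 CPM (WT) to 66.7 CPM (KO), a log2 difference of 0.21 (0.14 to 0.29). *Aqp4* had 0.35, *Ramp1* 0.19, *Rbp4* 0.17, *Scnn1b* 0.05, *Msln* -0.24 and *Defb1* -0.26. A pool of 3 mice is 1 sample, so a difference of mice, dissection or library cannot be told apart from that of genotype.

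**Figure D5:**
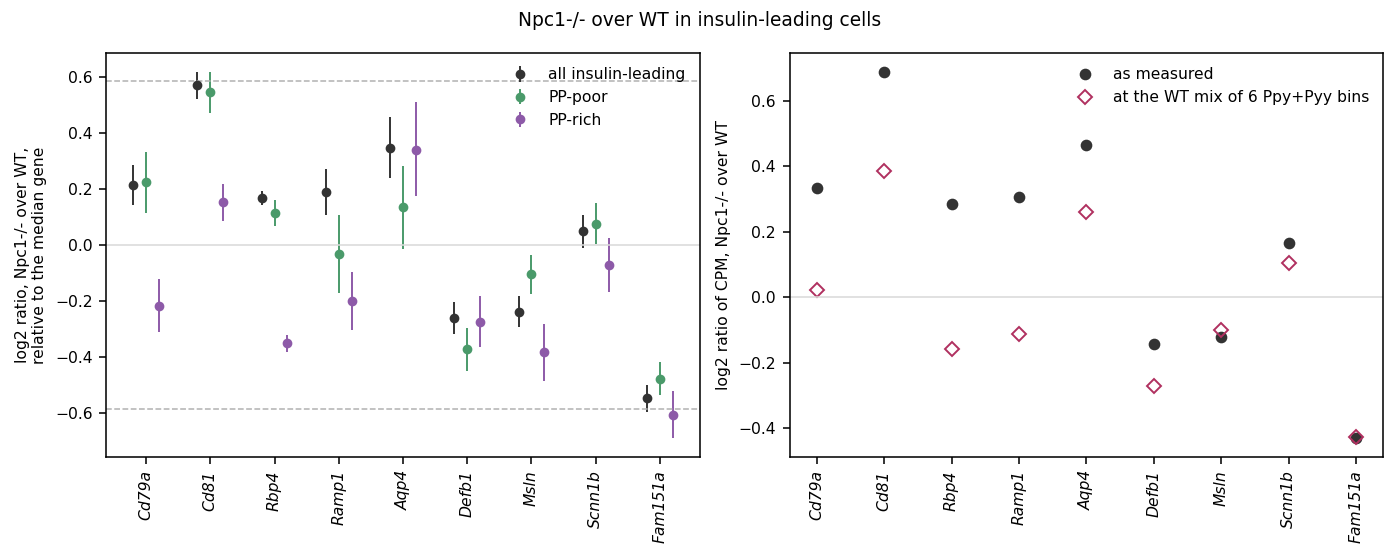
Left, log2 ratio of *Npc1*-/- over WT relative to the median gene for 9 genes in all, PP-poor and PP-rich insulin-leading cells, with exact 95% counting intervals and dashed lines at 1.5-fold. Right, log2 ratio of CPM in all insulin-leading cells as measured and with the KO cells weighted to the WT mix of 6 *Ppy*+*Pyy* bins. *Cd79a* moves from 0.33 to 0.02, while *Fam151a* stays at -0.43 and -0.42.

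The KO library held more PP-rich cells, and the pooled ratios carry that mix. With KO cells weighted to the WT mix of the 6 bins, the log2 ratio of CPM for *Cd79a* went from 0.33 to 0.02 and that of *Ramp1* from 0.31 to -0.11. *Rbp4* went from 0.28 to -0.16. The 0.02 of *Cd79a* is a net of bins that went both ways and not a level match within bins. *Cd79a* was higher in KO at 0.3 to 1% (61.7 CPM in WT and 73.5 CPM in KO) and at 3 to 10% (73.1 and 115 CPM). It was lower in KO at 1 to 3% (128 and 97.8 CPM). In each of these bins the intervals were apart. *Cd81* kept 0.39 of 0.69 and *Aqp4* 0.26 of 0.47. These ratios are not set against the median gene. *Aqp4* was level in the lowest bin, at 14.61 CPM in WT and 14.65 CPM in KO. It was higher in KO at 1 to 3% (34.7 CPM in WT and 42.4 CPM in KO) and at 3 to 10% (24.4 and 43.6 CPM). In the other bins its intervals overlapped. *Cd81* was higher in KO in all 6 bins, for example at 66.2 against 39.2 CPM in the lowest. *Fam151a* was hardly touched by the mix, with -0.43 and -0.42, and was lower in KO in all 6 bins, at 112 against 146 CPM in the lowest.

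Within PP-poor cells 0 of 9 genes were past 1.5-fold in either direction (background 1.58% higher and 1.66% lower), and within PP-rich cells 0 were higher and 1 lower (background 1.76% and 1.48%). The 1 was *Fam151a*, at 160 CPM in WT and 112 CPM in KO, -0.61 (-0.69 to -0.52) relative to the median gene. *Cd79a* pointed up in PP-poor cells (0.22, 0.11 to 0.33) and down in PP-rich cells (-0.22, -0.31 to -0.12). Outside insulin-leading cells, *Ramp1* was higher in KO in *Gcg*-led cells, at 36.7 and 50.1 CPM (0.42, 0.28 to 0.57), in *Sst*-led cells, at 115 and 174 CPM (0.58, 0.38 to 0.79), and in *Ppy*+*Pyy*-led cells, at 76.0 and 121 CPM (0.60, 0.46 to 0.74). The last was past 1.5-fold, the 1 of 7 genes tested that was higher there, and none was lower (background 1.95% higher and 2.5% lower). In *Gcg*-led cells none of 6 genes passed (0.687% and 1.07%). In *Sst*-led cells none of 8 was higher and 1 lower (6.48% and 5.71%), *Cd79a* on 25 and 15 UMIs. In endothelial-like cells none of 4 was higher and 3 lower (2.13% and 3.7%): *Cd79a*, *Rbp4* and *Fam151a*, all under 40 CPM. *Rbp4* had 164 UMIs in 50 of 441 WT cells and 70 UMIs in 57 of 448 KO cells. *Cd79a* had 34 UMIs in 5 WT cells and 22 UMIs in 8 KO cells. Their lower pooled level in KO was thus not one of fewer cells with a UMI. After thinning, *Rbp4* was seen in 5.58% of WT and 7.45% of KO cells and *Cd79a* in 1.27% and 0.240%, with overlapping intervals. *Fam151a* had 33 UMIs in 33 WT cells and 18 UMIs in 16 KO cells. The *Cd79a* signal of WT endothelial-like cells is the one matched by *Cd79b* above. The *Ppy*+*Pyy*-led cells of both libraries had *Sst* among their leading genes, at 31475 CPM in WT and 35210 CPM in KO. *Hhex*, a δ cell factor, was among the leading genes in KO only. The part of these in the *Ramp1* value was not tested.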

How the data were processed

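Islet cells of 2 genotypes were profiled with 10x Genomics 3' libraries, 1 library each. The deposited files hold raw UMI counts per gene and barcode. Per the labels, the authors made these counts with Cell Ranger 3.1.0 on mm10 and used Seurat 4.0.3. The deposited matrices are filtered barcodes that were further filtered here as given above, with haemoglobin kept at 0.1% or less. The labels name the v3 kit and the methods the v2 kit.

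The 10 genes, the lists and the limits were chosen with earlier results of these data known. UMIs were summed over the cells of each class and library and divided by all UMIs of the class (CPM). Hormone classes other than insulin need 5% of UMIs from their hormone. Other cells were called from lists of 8 markers, with at least 3 detected and a lead of 2 over the next class. A gene was tested where either side reached 5 CPM. Ratios have exact conditional binomial intervals at 95%, levels have exact Poisson intervals and shares have Clopper-Pearson intervals. A count of 0 allows up to 3 counts. With 1 library per genotype, called means past 2-fold (between cell classes) or 1.5-fold relative to the median gene (between genotypes). Log2 ratios add 0.5 to each count. Named genes were the 10, *Npc1*, list members at 20 CPM or more in any class, the most alike genes and the neighbours. The ratio step was tested on simulated data. Some genes of the lists are not reported here. Doublets were not removed. Scrublet in scanpy 1.11.5 called 65 WT and 40 KO cells, and removing the cells with the highest scores (0.8% per 1000 barcodes) was an alternative. Python 3.11.15, numpy 2.4.6, scipy 1.17.1 and pandas 2.3.3 were used. Alternatives were the totals without hormone genes, means over cells, looser and stricter cell filters, insulin limits of 10% and 30%, *Ppy*+*Pyy* limits of 0.5% and 2%, thinning, leaving out cells with B cell markers or stress genes, low limits of 1 and 20 CPM and other folds.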

Additional observations from a re-analysis of the deposited data

Results flagged for a closer look

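For 2 genes the KO over WT difference pointed in opposite directions in PP-poor and PP-rich insulin-leading cells, with both counting intervals clear of 0. Those intervals take no account of which cells were sampled and are too narrow for genes spread unevenly over cells. The share of all genes with such opposite directions was not computed, so nothing is read from the count. The difference itself was not tested, since each genotype is 1 library. *Cd79a* was at 0.22 in PP-poor and -0.22 in PP-rich cells (log2, relative to the median gene). *Rbp4* was at 0.11 in PP-poor and -0.35 in PP-rich cells. With the *Ppy*+*Pyy* limit at 0.5% or 2% these directions did not all hold, as given below.

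Between insulin-leading and *Gcg*-led cells, *Cd81* differed in direction, at 0.57 and -0.0847, and so did *Rbp4*, at 0.17 and -0.11. These differences were not tested either.

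Insulin-leading barcodes at or over 50000 UMIs enter none of the comparisons above. There were 152 in WT and 336 in KO, with 40 and 123 PP-rich. Relative to the median gene, with intervals clear of 0, the genes higher in KO were *Cd79a* by 0.55 (28.2 and 43.3 CPM), *Cd81* by 0.62 (79.0 and 126 CPM), *Ramp1* by 0.63 (23.2 and 37.7 CPM), *Aqp4* by 0.49 (14.5 and 21.3 CPM) and *Scnn1b* by 0.29 (71.6 and 91.6 CPM). Those lower in KO were *Msln* (-0.62, 97.1 and 65.8 CPM), *Fam151a* (-0.49, 137 and 102 CPM) and *Rbp4* (-0.10, 434 and 423 CPM). These intervals too cover counting error only and are too narrow for genes held by few cells. No background share of all genes was computed for these barcodes. Whether these barcodes hold 1 cell each was not tested.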

How the results depend on the processing

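The ratios and counts were recomputed under 15 other settings and 1 more chosen after the data were seen (leaving out cells with *Sst* or *Gcg*). Of 45 ratios, 36 kept their sign in all 16 and 9 did not. The count of 4 genes past 2-fold between PP-rich and PP-poor cells was 3 in KO with the stricter filter and at the limit of 2%, where *Cd79a* fell under 2-fold, 5 in KO at the limit of 0.5% and without the highest doublet scores, and 5 or 6 when 1.5-fold was counted. The log2 ratio of *Cd79a* between PP-rich and PP-poor cells was 1.57 and 1.11 without hormone genes in the totals, 1.55 and 0.90 with the stricter cell filter, 2.01 and 1.99 with the limit at 0.5%, 1.02 and 0.98 with it at 2%, and 1.46 and 1.13 after thinning. It was 1.87 in WT without the highest doublet scores and 1.80 in WT without the cells with *Sst* or *Gcg*. The KO over WT value of *Cd79a* (0.21) was 0.35 with the stricter filter. The count of genes at least 1.5-fold higher in KO (0) was 1 with the stricter filter, without the highest doublet scores, with the 20 CPM limit and without the cells with *Sst* or *Gcg*, and 2 with the lower fold limit. The 9 ratios that changed sign were *Fam151a* between PP-rich and PP-poor WT cells (-0.0259 without hormone genes in the totals, -0.0777 at a limit of 2%), *Fam151a* in KO (5 settings, up to 0.03), *Msln* in KO (0.25 at 0.5%) and in WT (3 settings, down to -1.09 at 2%), *Ramp1* in KO over WT PP-poor cells (3 settings, up to 0.24 after thinning), *Cd79a* and *Rbp4* in KO over WT PP-poor cells at 0.5% (-0.0169 and -0.0269), and *Cd79a* and *Msln* in KO over WT PP-rich cells at 2% (0.11 and 0.49). The cause was not tested. No paired analysis was possible because each genotype has 1 library, and no library could be left out. Depth limits *Cd79b* in PP-rich cells, where a count of 0 allows up to 0.223 CPM in WT.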

Other observations

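Some kept cells met no hormone limit but held *Chga* and *Chgb* (granins of secretory granules) at 2% of UMIs or more together with *Fev*, a transcription factor of serotonin-type and endocrine precursor cells. This group was formed after its genes were seen. There were 14 such cells in WT and 91 in KO. In the KO cells *Neurog3*, the factor that starts endocrine differentiation, stood at 69.5 CPM, *Slc18a1* (a monoamine transporter of vesicles) at 235 CPM and *Ucn3* at 4.53 CPM.

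Of the 10 genes, *Cd79a* stood at 72.6 CPM in these KO cells (58.8 to 88.6), against 66.7 CPM in KO insulin-leading cells. It was seen in 39 of the 91 granin-rich KO cells, with *Cd79b* at 0. *Cd81* stood at 500 CPM, *Rbp4* at 204 CPM, *Defb1* at 101 CPM, *Ramp1* at 48.4 CPM, *Msln* at 37.8 CPM and *Fam151a* at 34.0 CPM. *Aqp4* had 0 UMIs in all 91 cells, which allows up to 2.27 CPM, against 30.3 CPM in KO insulin-leading cells. The 14 WT cells held 34.1 CPM of *Cd79a* (6 UMIs), 660 CPM of *Cd81* and 102 CPM of *Fam151a* (18 UMIs in 6 cells).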
